A study of Mus musculus and Rattus norvegicus with 32 samples.

Results

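Control hearts collected 4 weeks after transverse aortic constriction (TAC) were compared with unstressed control hearts by RNA sequencing. TAC narrows the aortic arch with a ligature and so raises the pressure against which the left ventricle ejects. The members are the 4 libraries labelled control in the table of the TAC experiment and the 4 libraries labelled control in the table of 3-month-old hearts, 8 of the 32 samples of the series, joined on the gene identifier. The study as a whole compared hearts with and without METTL5, an 18S rRNA methyltransferase, at 1 month, at 3 months and after TAC, and added cultured rat cardiomyocytes. All 8 libraries are RNA of hearts, with no chamber named, from C57BL/6 mice whose age is given as 3 months and whose genotype is given as Ctrl. The controls are littermates of mice in which Myh6-Cre deletes floxed METTL5 in cardiomyocytes, and whether they carried Cre or floxed alleles is not given in the sources used here. The unstressed hearts carry no label of an operation, so surgery, aortic narrowing and the table a library came from cannot be told apart.

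Pressure overload makes cardiomyocytes grow, and the adult ventricle then turns on genes of the fetal heart, among them the natriuretic peptides and skeletal α-actin. Fibroblasts answer with matrix genes such as periostin and collagens, and resident and recruited macrophages multiply. In rodents the response commonly includes less RNA for calcium pumps, ion channels and fatty acid oxidation. Here RNA was read from bulk heart tissue, where fewer cells of a type and less RNA per cell cannot be told apart.

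The libraries held 19899033 to 21739203 estimated counts, and the 10 most abundant genes took 35.4 to 38.9% of them. Xist stayed at or below 1.35 CPM (counts scaled to a common library size) and the Y-linked Ddx3y lay between 36.2 and 52.7 CPM in the 8 libraries, so both groups read as male. Cardiomyocyte markers (13 genes, among them troponins and myosins) summed to 48808 to 51532 CPM in the unstressed and 47725 to 51968 CPM in the TAC hearts. Markers of fast skeletal muscle summed to at most 1.87 CPM with Myh1, Myh4 and Actn3 at 0, and atrial markers summed to at most 2.92 CPM with Mybphl at 0. All 8 libraries thus carried the markers of ventricular muscle. The libraries of a group differed by more than counting noise, with a chi-square over its degrees of freedom of 4.78 for the most similar pair.

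Of 55487 genes listed, 16269 had enough counts to be tested, and 139 of them (0.854%) rose and 95 (0.584%) fell after TAC at an adjusted p under 0.05 (quasi-likelihood test of edgeR, Benjamini-Hochberg adjusted). Genes that passed this test and also changed by more than 1 on the log2 scale are called dysregulated, and these were 36 higher (0.221%) and 27 lower (0.166%). The split of higher and lower genes moved to 32 and 34 with library size alone, was 37 and 27 with the size factors of DESeq2 inside edgeR, and was 54 and 61 with DESeq2 itself, whose test also differs. Of the 63 genes, 60 passed with library size alone and 60 with DESeq2. Ankrd2 and Gm41505, which are among the 63, were given no adjusted p by DESeq2. At an adjusted p under 0.05 without a minimum fold change DESeq2 called more genes, 394 higher and 377 lower, so counts of list members are those of edgeR unless DESeq2 is named. With no filter on low counts 185 of the 234 genes lost their calls, and in a fit of all 16 control and METTL5-cKO libraries 159 did. Of the genes named below, Acta1, Nppa, Aspn, Adh1, Aldh1a1, Fgf6, Lair1, Eif4ebp1, Ankrd2, Slc7a1, Cyb5r2, Dnaaf3, Gm17228 and Gm41505 kept theirs in both, and every other gene named as risen or fallen lost it in at least 1 of them. The 4 TAC libraries lay above all 4 unstressed libraries for 992 tested genes (6.1%) and below them for 942 (5.79%). The median log2 fold change of all tested genes was -0.01, so lists are read below against a median near 0. That median depended on gene length, as given below, and the lists were not matched for length.

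**Figure D1:**
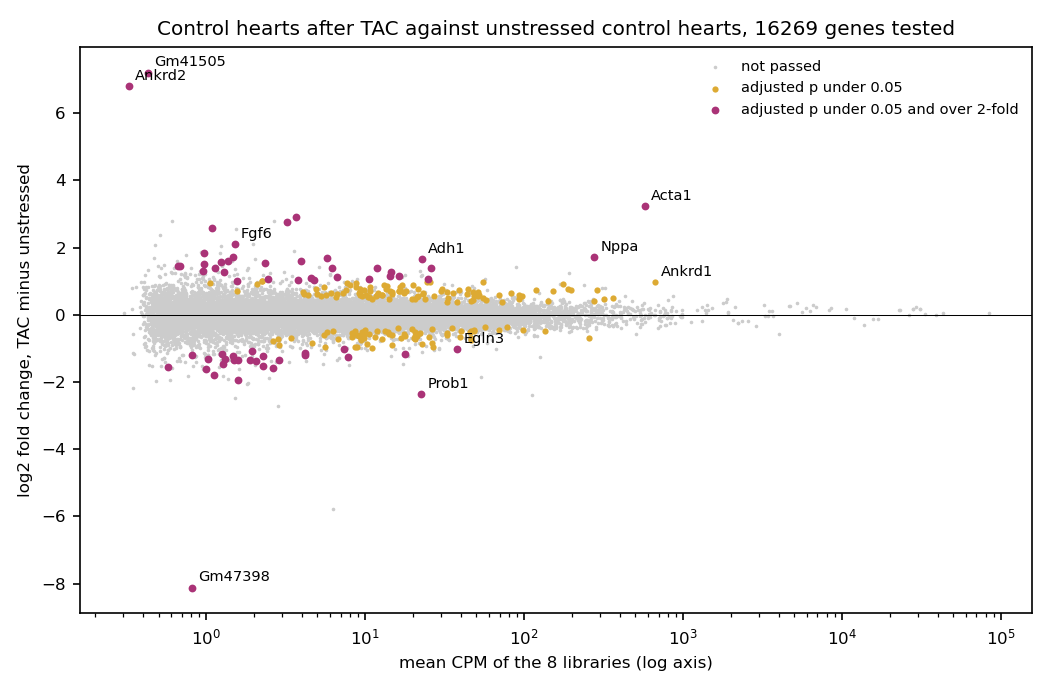
Log2 fold change of control hearts after TAC over unstressed control hearts (vertical axis) against mean CPM of the 8 libraries (horizontal axis, log scale) for 16269 tested genes, with 63 dysregulated genes in purple and the other genes that passed the test in yellow. Acta1, at a log2 fold change of 3.23, is the highest of the abundant genes, and Ankrd2, Gm41505 and Gm47398 lie far from 0 because 1 group has 0 counts.

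The cardiomyocyte stress genes were led by Acta1 (skeletal α-actin, chr8:123891769-123894751, minus strand in GRCm38), the actin of fetal and overloaded ventricle. It read 72.2, 129.6, 113 and 128 CPM in the unstressed hearts and 1279, 777, 1204 and 902 CPM after TAC. All TAC libraries were far above all unstressed libraries, and TAC libraries 1 and 3 were the highest. Its log2 fold change was 3.23 ± 0.22 (SE, adjusted p = 0.000714), a 9.41-fold rise, and it kept its call whichever of the 8 libraries was left out (highest adjusted p = 0.00605). Cardiac α-actin, Actc1, differed little, with a log2 fold change of 0.28 (adjusted p = 0.159). Per kilobase of exon, Acta1 was 1.96 ± 0.546% of the sum of both actins in the unstressed hearts and 13.2 ± 2.63% after TAC (SD, n = 4, exact permutation p = 0.0286, two-sided). That p is the smallest that 4 against 4 libraries allow. The 2 actins are closely related genes, so some of the reads could have been assigned to either.

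Nppa, the gene of atrial natriuretic peptide, a hormone of the stretched heart that lowers blood volume (chr4:148000722-148002079, plus strand), read 90.1, 149, 137 and 134 CPM in the unstressed hearts and 327, 352, 482 and 525 CPM after TAC. The groups lay well apart, and TAC libraries 3 and 4 were the highest. The log2 fold change was 1.72 ± 0.19 (SE, adjusted p = 0.00926), and it also kept its call whichever library was left out (highest adjusted p = 0.0435). Nppb, which encodes the related B-type peptide, read 65.5, 166, 69.7 and 155 CPM unstressed and 129, 358, 323 and 264 CPM after TAC. The groups overlapped, because TAC library 1 was lower than unstressed libraries 2 and 4, and the log2 fold change of 1.24 did not pass (standard error 0.37, adjusted p = 0.132, exact permutation p = 0.0857). Of 13 tested genes of natriuretic peptide signaling, Nppa was the 1 that passed. The receptor gene Npr1 gave 0.12 (adjusted p = 0.739).

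Ankrd1, a titin-associated stretch sensor of the sarcomere, read 546, 470.3, 338 and 449 CPM unstressed and 979, 829, 961 and 749 CPM after TAC with no overlap. It rose by 0.96 on the log2 scale (SE 0.15, adjusted p = 0.0189). Its relative Ankrd2 had 0 counts in all 4 unstressed libraries and 13, 15, 15 and 11 counts in the TAC libraries. Against 3 counts per library, the level after TAC was at least 4.75-fold higher. Synpo2l, a Z-disc protein, read 67.9 to 77.6 CPM unstressed and 95.8 to 121 CPM after TAC (log2 fold change 0.60, adjusted p = 0.0185). Tpm2, a tropomyosin of fetal and smooth muscle, read 11.3 to 14.1 and 18.4 to 22.1 CPM (log2 fold change 0.69, adjusted p = 0.017), and Mybpc2, the fast skeletal form of myosin-binding protein C, 7.22 to 12.3 and 17.6 to 18 CPM (log2 fold change 0.86, adjusted p = 0.0457). These 3 genes rose without overlap of the groups. Ankrd1 (adjusted p up to 0.0728) and Synpo2l (adjusted p up to 0.0673) lost their calls without unstressed library 4 or without TAC library 2 or 3. Tpm2 (adjusted p up to 0.0651) lost its call without unstressed library 4 or without TAC library 2, 3 or 4. Mybpc2 passed in 1 of the 8 fits that leave out 1 library, with adjusted p up to 0.123.

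The myosin heavy chains behaved otherwise. Myh6, the fast α chain of the adult mouse ventricle, read 16487, 13319, 15744 and 14998 CPM unstressed and 11666, 13450.3, 10516 and 13014 CPM after TAC, with a log2 fold change of -0.32 ± 0.11 (SE, adjusted p = 0.159). Myh7, the slow β chain that is classically induced by overload, read 3483, 3425, 4174 and 3645 CPM and 2967, 4147, 3743 and 3651 CPM, with a log2 fold change of -0.02 ± 0.11 (SE, adjusted p = 0.932). The libraries overlapped for both genes, and the sign of the Myh7 difference turned with a correction for gene length. Per kilobase of exon, Myh7 was 16 ± 1.32% of the sum of both chains unstressed and 18.9 ± 2.21% after TAC (SD, n = 4, exact permutation p = 0.0857, two-sided). The chains share long identical stretches, so this share carries an error of read assignment. In all, 6 of 30 tested markers of hypertrophy and the fetal program rose (Acta1, Nppa, Ankrd1, Tpm2, Synpo2l and Mybpc2) and 0 fell, with a median log2 fold change of 0.33. Of 44 sarcomere and Z-disc genes, Acta1, Tpm2 and Mybpc2 rose and none fell, whereas DESeq2 called 8 higher and 3 lower. The count of hypertrophy markers that rose ran from 2 to 6 over the 8 fits that leave out 1 library, and DESeq2 called 9 higher and 0 lower.

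**Figure D2:**
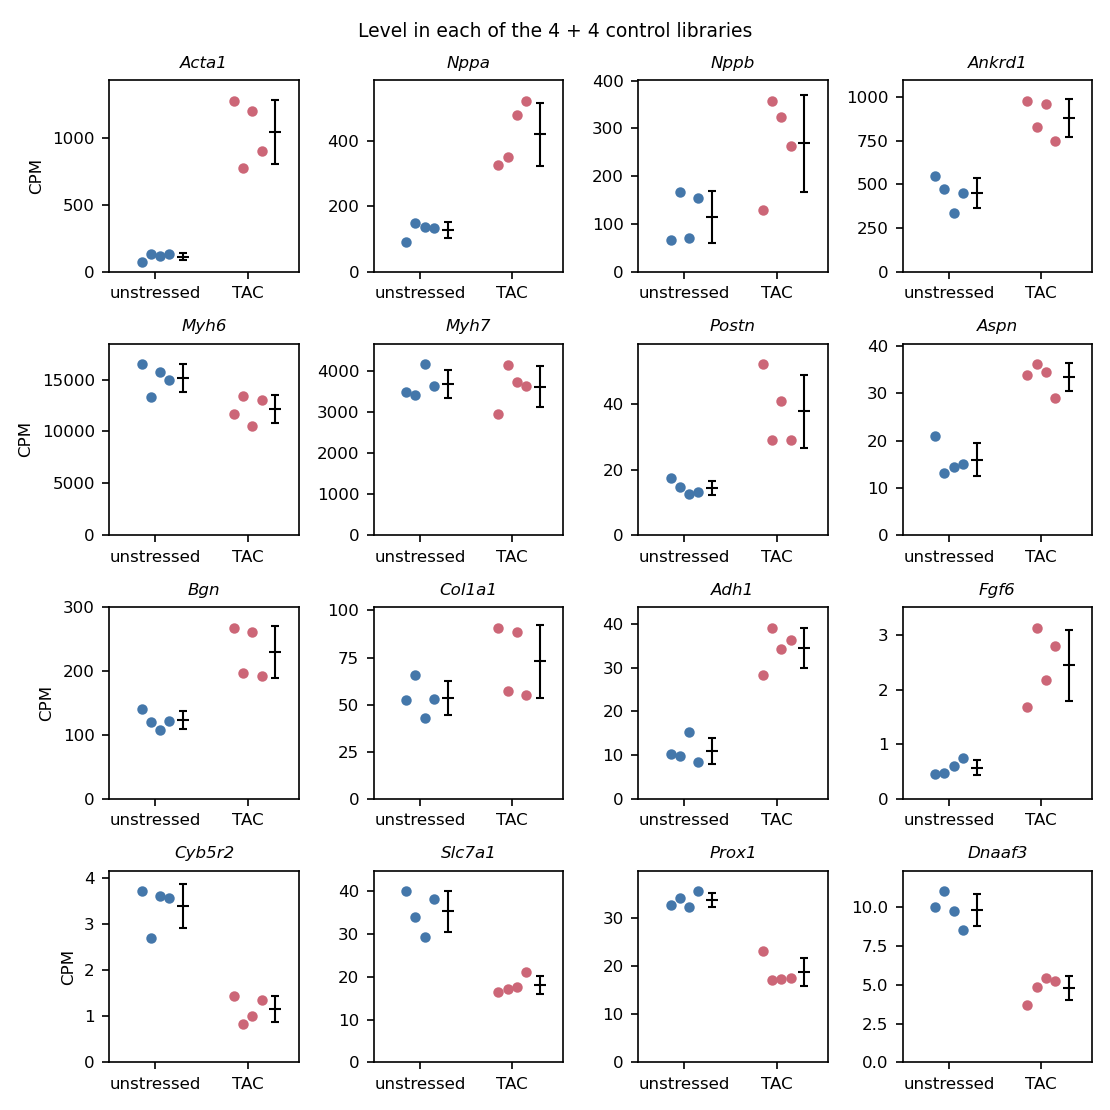
CPM in each of the 4 unstressed (blue) and 4 TAC (red) control libraries for 16 genes, each panel with its own linear axis from 0, and black marks for mean ± SD. The groups lie apart for Acta1, Nppa, Ankrd1, Postn, Aspn, Bgn, Adh1, Fgf6, Cyb5r2, Slc7a1, Prox1 and Dnaaf3 and overlap for Nppb, Myh6, Myh7 and Col1a1.

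The promoters of Acta1, Nppa, Nppb and Ankrd1 are shown because these are the classic stress genes of the overloaded cardiomyocyte. Each run holds 300 bases in the direction of transcription, most of them before the RefSeq start site and the last ones inside the gene (GRCm38.p6). Capitals mark the letters TATAAA (the core promoter box), CATTCC (the core of the element bound by TEAD factors), AGATAA (of the kind that GATA factors bind), TGANTCA (an AP-1-type site) and the CArG box of serum response factor, each read on both strands. The MEF2 box was searched too and is in none of the 4.
Acta1 (chr8:123894726-123895025, minus strand): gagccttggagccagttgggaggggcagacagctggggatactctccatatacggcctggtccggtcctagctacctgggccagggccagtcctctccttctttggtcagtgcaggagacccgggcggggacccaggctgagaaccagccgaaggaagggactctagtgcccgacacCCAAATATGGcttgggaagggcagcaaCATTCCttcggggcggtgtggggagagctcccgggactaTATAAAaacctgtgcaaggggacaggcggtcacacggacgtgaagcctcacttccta
Nppa (chr4:148000472-148000771, plus strand): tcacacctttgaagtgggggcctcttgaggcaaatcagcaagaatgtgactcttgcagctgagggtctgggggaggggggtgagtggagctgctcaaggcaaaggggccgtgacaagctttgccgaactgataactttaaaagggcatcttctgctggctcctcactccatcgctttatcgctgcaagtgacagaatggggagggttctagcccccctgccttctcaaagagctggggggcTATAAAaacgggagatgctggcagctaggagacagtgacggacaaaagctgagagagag
Nppb (chr4:147985650-147985949, plus strand): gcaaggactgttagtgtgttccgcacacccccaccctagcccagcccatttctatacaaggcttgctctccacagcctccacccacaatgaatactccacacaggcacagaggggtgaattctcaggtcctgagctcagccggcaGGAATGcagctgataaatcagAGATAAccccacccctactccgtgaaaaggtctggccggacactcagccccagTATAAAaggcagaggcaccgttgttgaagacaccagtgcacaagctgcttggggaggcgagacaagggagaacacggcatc
Ankrd1 (chr19:36119795-36120094, minus strand): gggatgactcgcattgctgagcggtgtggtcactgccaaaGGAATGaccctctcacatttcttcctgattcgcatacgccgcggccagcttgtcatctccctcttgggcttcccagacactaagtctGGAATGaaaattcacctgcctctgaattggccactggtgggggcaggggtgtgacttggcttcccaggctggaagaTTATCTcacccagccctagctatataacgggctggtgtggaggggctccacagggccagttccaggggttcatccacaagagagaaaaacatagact

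The Acta1 window held a CArG box 73 bases before the start, a CATTCC 46 bases before it and a TATAAA. The Nppb window held CATTCC on the other strand, AGATAA and TATAAA, and the Ankrd1 window CATTCC on the other strand in 2 places and AGATAA on the other strand. The Nppa window held TATAAA alone. CATTCC was in 14.7% of 32851 RefSeq promoters of this length, AGATAA in 11.2%, TATAAA in 13.6%, TGANTCA in 7.81%, the CArG box in 1.63% and the MEF2 box in 0.557%. Promoters were found for 98 of the 139 genes that rose and 65 of the 95 that fell, some with several entries. TATAAA was in 18.3% of 115 promoters of genes that rose, in 13.6% of 88 of genes that fell and in 7.79% of 13599 of all tested genes. CATTCC was in 13.9%, 14.8% and 12.5%, AGATAA in 8.7%, 6.82% and 6.63%, and TGANTCA in 9.57%, 10.2% and 5.17% of the same sets. The CArG box was in 0.87%, 0% and 1.32%, and the MEF2 box in 1.74%, 1.14% and 0.559%. These shares are descriptions of letters in the windows, without a test.

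Genes of the extracellular matrix, which in heart is made chiefly by fibroblasts, rose in several lists. With all libraries in the fit none fell in the 5 matrix lists by edgeR. DESeq2 called 7 collagens and 15 glycoproteins higher, and 1 of each lower. Without TAC library 3 edgeR also called 1 collagen lower. Postn (periostin, a secreted protein of activated fibroblasts, chr3:54361109-54391037, plus strand) read 17.3, 14.6, 12.6 and 13.3 CPM unstressed and 52.1, 29.1, 40.7 and 28.9 CPM after TAC. Each TAC library was above every unstressed library, and libraries 1 and 3 were the highest. The log2 fold change was 1.38 ± 0.20 (SE, adjusted p = 0.0148), and the call was lost without unstressed library 4 or without TAC library 3 (highest adjusted p = 0.0576). Mfap4, an elastic-fibre glycoprotein, read 7.04, 7.17, 5.79 and 6.12 CPM and 20.5, 13.7, 22.3 and 11.6 CPM and rose by 1.38 on the log2 scale (adjusted p = 0.017). Of the 8 fits that leave out 1 library, it lost its call in the 1 without unstressed library 4 (adjusted p = 0.0609). Fbln2 (fibulin-2, which links elastic fibres to basement membrane) read 57.6, 52.2, 56.7 and 55.7 CPM and 83.6, 85.4, 86.6 and 79.4 CPM. Its spread within each group was small, and its log2 fold change of 0.59 ± 0.071 (SE, adjusted p = 0.0101) held whichever library was left out (highest adjusted p = 0.0435).

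Of 50 tested matrix glycoproteins, 7 rose and 0 fell, with a median log2 fold change of 0.21. Beside the 3 above they were Sparc (0.73, adjusted p = 0.0331), Mfap5 (0.90, adjusted p = 0.0331), Tgfbi (0.59, adjusted p = 0.0428) and Igfbp7 (0.74, adjusted p = 0.0432). Sparc is a collagen chaperone and Mfap5 a microfibril protein. Sparc, Mfap5, Tgfbi and Igfbp7 passed in at most 2 of the 8 fits that leave out 1 library, with adjusted p up to 0.123. Over the 8 fits that leave out 1 library the count of these glycoproteins that rose ran from 1 (without unstressed library 4) to 13 (without unstressed library 1). Fibronectin, Fn1, read 30.7, 21.9, 24.2 and 25.1 CPM unstressed and 34, 32, 32.8 and 30.0 CPM after TAC and did not pass (log2 fold change 0.34, adjusted p = 0.146).

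The small leucine-rich proteoglycans bind collagen fibrils and growth factors. Aspn (asporin) read 21.1, 13.3, 14.5 and 15 CPM unstressed and 34, 36.2, 34.6 and 29.1 CPM after TAC, without overlap. It rose by 1.07 on the log2 scale (SE 0.14, adjusted p = 0.0122) and kept its call whichever library was left out. Bgn (biglycan) read 141, 121, 107 and 122 CPM and 268, 198, 262 and 193 CPM and rose by 0.90 ± 0.13 (SE, adjusted p = 0.017), a call that was lost without unstressed library 4 or without TAC library 3 (highest adjusted p = 0.0651). Dcn (decorin) and Lum (lumican) gave 0.40 (adjusted p = 0.112) and 0.57 (adjusted p = 0.136). Lum read 32, 21.1, 21.4 and 20.7 CPM unstressed, with library 1 apart from the other unstressed hearts. In all, 2 of 10 tested proteoglycans rose, 9 had a positive value, and the median was 0.44. The count that rose ran from 1 (without unstressed library 4) to 6 (without unstressed library 1) over the 8 fits that leave out 1 library.

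The fibrillar collagens did not pass. Col1a1 read 52.5, 65.5, 43 and 53 CPM unstressed and 90.8, 57.5, 88.4 and 55.2 CPM after TAC (log2 fold change 0.45, standard error 0.19, adjusted p = 0.24), and Col3a1 read 77, 78.4, 48.2 and 63.6 CPM and 137, 75.8, 112 and 78 CPM (0.59, standard error 0.21, adjusted p = 0.184). TAC libraries 1 and 3 were above all unstressed libraries for both genes, and TAC libraries 2 and 4 lay among the unstressed libraries. Col1a2 gave 0.52 (adjusted p = 0.139). Of 29 tested collagen genes 3 rose, namely Col8a1 (1.15, adjusted p = 0.0328), a short-chain collagen of vessel walls and scars, Col4a3 (1.03, adjusted p = 0.0328) of basement membrane, and Col16a1 (0.58, adjusted p = 0.0247). With all libraries in the fit none fell, 22 were positive, and the median was 0.22. The count that rose ran from 0 to 4 over the 8 fits that leave out 1 library. Without TAC library 3, 0 collagen genes rose and 1 fell. Col8a1, Col4a3 and Col16a1 passed in at most 3 of the 8 fits that leave out 1 library, with adjusted p up to 0.094.

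Among enzymes that shape the matrix and their inhibitors, 3 of 44 rose and 0 fell (median 0.17). Mmp2, a gelatinase, read 25.9, 21.1, 21.8 and 21.6 CPM unstressed and 37.5, 35.5, 41.4 and 34.3 CPM after TAC and rose by 0.72 on the log2 scale (SE 0.096, adjusted p = 0.0121). Timp4, the metalloproteinase inhibitor most abundant in heart, read 43.2, 34.2, 39.6 and 32.5 CPM and 59.4, 73.2, 86.8 and 74.4 CPM and rose by 0.97 ± 0.13 (SE, adjusted p = 0.0119). Both kept their calls whichever library was left out, but lost them in the fit of 16 libraries. The third was Pcolce2, an enhancer of procollagen cleavage (0.53, adjusted p = 0.0464), whereas Lox, the collagen crosslinker, gave 0.36 (adjusted p = 0.276) and Timp1 0.81 (adjusted p = 0.229). Pcolce2 passed in 1 of the 8 fits that leave out 1 library, with adjusted p up to 0.131.

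The TGF-β ligands, known to drive such genes in fibroblasts, did not pass, with 0.21 for Tgfb1 (adjusted p = 0.296), 0.18 for Tgfb2 (adjusted p = 0.481) and 0.33 for Tgfb3 (adjusted p = 0.128). Of 30 tested genes of the family, the follistatin-like Fstl3 (0.83, adjusted p = 0.0209), which binds activins, and Fstl1 (0.56, adjusted p = 0.049) rose, and none fell. Ccn2, the connective tissue growth factor that TGF-β and YAP induce, read 58.6, 27.1, 26.6 and 35.9 CPM unstressed and 45.8, 111, 67.1 and 83.8 CPM after TAC. TAC library 1 lay below unstressed library 1, and the log2 fold change of 1.05 did not pass (standard error 0.30, adjusted p = 0.117). Ccn5, a family member that lacks a domain of Ccn2 and is known to oppose fibrosis, rose by 1.08 (adjusted p = 0.0432). Fstl3 (adjusted p up to 0.0652) lost its call without unstressed library 4 or without TAC library 2 or 4. Fstl1 and Ccn5 passed in 0 of the 8 fits that leave out 1 library, with adjusted p up to 0.137. Of 18 tested genes of activated fibroblasts, Postn, Mfap4 and Col8a1 rose and none fell, with a median of 0.52, and the count ran from 0 to 4 over the 8 fits that leave out 1 library. Acta2, the actin of myofibroblasts, was at -0.24 (adjusted p = 0.373), and Meox1, a transcription factor of activated fibroblasts, at 0.23 (adjusted p = 0.425). General fibroblast markers, 8 genes of which none passed, summed to 860 to 1069 CPM unstressed and 1050 to 1205 CPM after TAC, and their part in the matrix result was not tested.

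**Figure D3:**
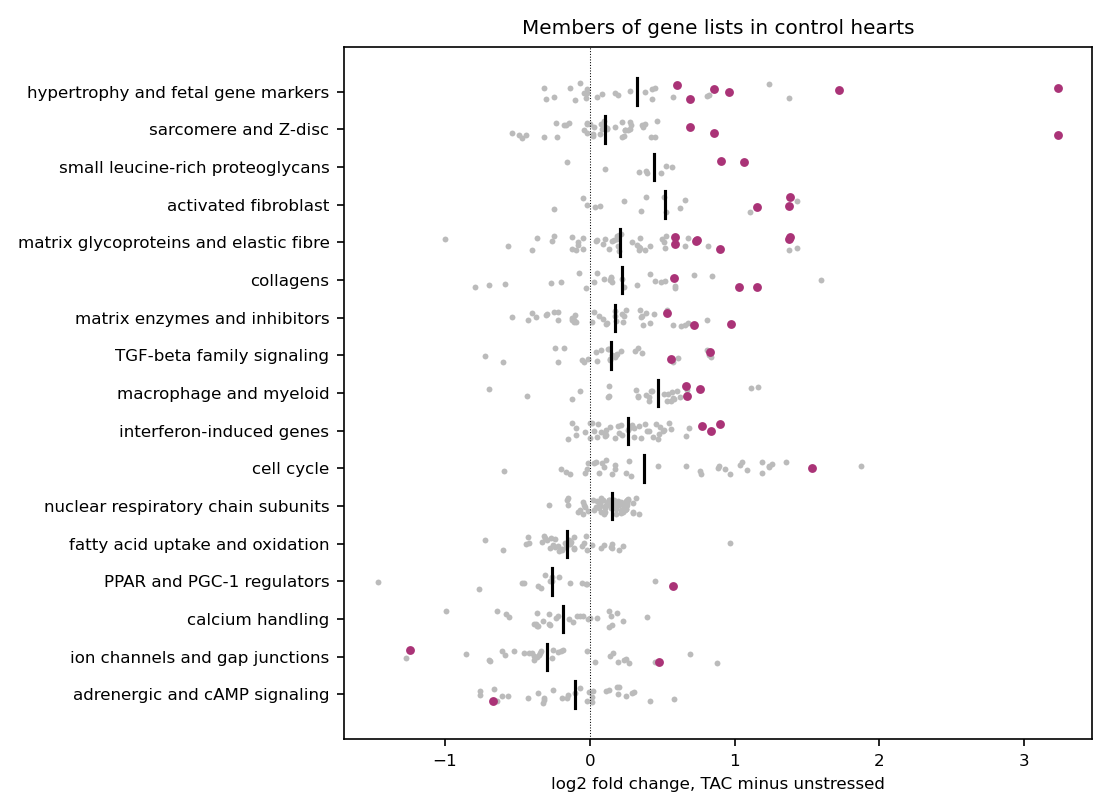
Log2 fold change of the tested members of 17 gene lists in control hearts, TAC over unstressed, with members that passed the test in purple, the others in grey and the list median as a black bar. Matrix, proteoglycan and fibroblast lists have purple points on the right, and the fatty acid and calcium lists have medians left of 0 and no member that passed.

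Several further genes rose. Adh1, an alcohol dehydrogenase that makes retinaldehyde, read 10.3, 9.72, 15.4 and 8.43 CPM unstressed and 28.4, 39.1, 34.3 and 36.3 CPM after TAC (log2 fold change 1.66, standard error 0.18, adjusted p = 0.00926). Aldh1a1, the next enzyme of that route to retinoic acid, read 13.8, 8.63, 9.21 and 8.83 CPM and 19.6, 25.6, 22.2 and 23.2 CPM (log2 fold change 1.16, standard error 0.16, adjusted p = 0.0124). Both kept their calls whichever library was left out. Aldh1a1 was chosen after its values were seen. Fgf6, a growth factor of skeletal muscle, read 0.451, 0.472, 0.592 and 0.754 CPM and 1.68, 3.13, 2.18 and 2.8 CPM (log2 fold change 2.1, adjusted p = 0.0101), and Lair1, an inhibitory collagen receptor of leukocytes, 0.632, 0.943, 0.638 and 0.488 CPM and 1.87, 2.01, 2.28 and 2.05 CPM (1.60, adjusted p = 0.0105). These 2 genes rest on few counts, and all of their TAC libraries were above all of their unstressed libraries. Gsta3, a glutathione transferase, rose by 1.70 (adjusted p = 0.0148), from 2.22 to 3.57 CPM unstressed against 5.09 to 10.4 CPM after TAC, and was chosen in the same way as Adamtsl2. Adamtsl2, a matrix protein that binds TGF-β regulators, rose by 1.27 (adjusted p = 0.0148), Itgbl1 by 1.13 (adjusted p = 0.0464) and Nox4, an oxidase that forms hydrogen peroxide, by 1.44 (adjusted p = 0.0432). Gsta3 (adjusted p up to 0.0583) and Adamtsl2 (adjusted p up to 0.0571) lost their calls without unstressed library 4 or without TAC library 3. Itgbl1 and Nox4 passed in at most 1 of the 8 fits that leave out 1 library, with adjusted p up to 0.134.

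Macrophage genes were mostly positive. Of 30 tested myeloid genes 26 had a positive value and the median was 0.47, but 3 passed, namely C1qc (0.67, adjusted p = 0.0331), a complement component made by resident macrophages, Cd163 (0.76, adjusted p = 0.0462), their haemoglobin scavenger receptor, and Ly6c2 (0.68, adjusted p = 0.0442), a surface protein of inflammatory monocytes. C1qc, Cd163 and Ly6c2 passed in at most 1 of the 8 fits that leave out 1 library, with adjusted p up to 0.129. DESeq2 called 7 myeloid genes higher and 0 lower. Csf1r, the receptor that macrophages need to survive, gave 0.51 (adjusted p = 0.053), Adgre1 0.39 (adjusted p = 0.184) and Cd68 0.58 (adjusted p = 0.162). The summed level of 7 macrophage markers was 101 to 132 CPM unstressed and 152 to 201 CPM after TAC, without overlap and with none of the 7 passing. Markers of T, B and NK cells summed to at most 5.28 CPM and those of neutrophils to at most 8.21 CPM in either group. Red-cell markers, 6 genes of which none passed, summed to 523 to 928 CPM unstressed and 1112 to 1514 CPM after TAC. The macrophage and red-cell sums thus moved with the groups, and their part in these results was not tested.

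Of 46 tested interferon-induced genes 41 were positive with a median of 0.27, and Cmpk2 (0.77, adjusted p = 0.0361), Ifit3 (0.90, adjusted p = 0.0439) and Ifi27l2a (0.84, adjusted p = 0.0475) rose. Cmpk2, Ifit3 and Ifi27l2a passed in at most 3 of the 8 fits that leave out 1 library, with adjusted p up to 0.129. Ifi27l2a also lost it with the correction for gene length described below. DESeq2 called 7 interferon-induced genes higher and 0 lower. Among chemokines, the scavenging receptor Ackr4 rose (3.57, 1.27, 1.64 and 1.33 CPM against 6.14, 6.22, 6.29 and 5.13 CPM, log2 fold change 1.60, adjusted p = 0.0336) and Ccl11, the eosinophil attractant eotaxin, fell (-1.34, adjusted p = 0.0428). Masp1, a protease of the lectin pathway of complement, rose by 0.58 (adjusted p = 0.0217). Of 38 cell cycle genes 31 were positive with a median of 0.38, which was 0.64 without unstressed library 2 and 0.18 with at least 10 counts required in every library, and Ccna2 (cyclin A2) was the 1 that rose (1.08, 1.93, 0.911 and 0.843 CPM against 4.56, 2.67, 4.21 and 2.38 CPM, 1.53, adjusted p = 0.0448). Mki67 gave 1.05 (adjusted p = 0.109), Top2a 1.24 (adjusted p = 0.0779) and Cdk1 1.88 (adjusted p = 0.24). DESeq2 called 5 cell cycle genes higher and 0 lower. Ackr4, Ccl11, Masp1 and Ccna2 passed in at most 2 of the 8 fits that leave out 1 library, with adjusted p up to 0.129.

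Of the genes that fell, 3 with small spread come first. Cyb5r2, a cytochrome b5 reductase, read 3.7, 2.69, 3.6 and 3.55 CPM unstressed and 1.44, 0.842, 1.01 and 1.35 CPM after TAC, a log2 fold change of -1.54 ± 0.19 (SE, adjusted p = 0.0105). Slc7a1, the carrier of arginine and lysine into cells, read 39.9, 33.9, 29.3 and 38.3 CPM and 16.4, 17.2, 17.7 and 21.1 CPM (-0.97, standard error 0.12, adjusted p = 0.0105). Prox1, a homeobox factor of lymphatic endothelium that also acts in cardiomyocytes, read 32.8, 34.2, 32.4 and 35.6 CPM and 23.3, 17.2, 17.4 and 17.5 CPM (-0.84, adjusted p = 0.0112). For these 3 genes the TAC libraries were all below the unstressed libraries, and each call held whichever library was left out. Prox1 lost it in the fit of 16 libraries.

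Aqp4, a water channel, fell by 1.22 on the log2 scale (adjusted p = 0.0237), Klhdc7a by 1.38 (adjusted p = 0.0187), Lingo3 by 1.21 (adjusted p = 0.0273) and Chrna10 by 1.30 (adjusted p = 0.0328). Scn4a, the sodium channel of skeletal muscle, read 15.4, 7.59, 10.6 and 9.81 CPM and 5.85, 3.88, 4.92 and 3.73 CPM (-1.24, adjusted p = 0.0332). Egln3, an oxygen-sensing prolyl hydroxylase, read 56.4, 57.2, 31.3 and 57.6 CPM and 31.7, 23.2, 22.1 and 23 CPM (-1.02, adjusted p = 0.0432). Unstressed library 3 was at the level of TAC library 1, so its groups overlapped, and the gene was chosen for this after its values were seen. Hspa5, the main chaperone of the endoplasmic reticulum, read 292, 347, 240.0 and 392 CPM and 179.7, 212, 186 and 212 CPM (-0.69, adjusted p = 0.049) and was the 1 of 41 chaperone genes that passed, whereas DESeq2 called 4 lower and 2 higher. Wnt5a (-0.83, adjusted p = 0.049), Angpt1 (-0.65, adjusted p = 0.049), the desmosomal cadherin Dsg2 (-0.45, adjusted p = 0.0479) and the laminin receptor subunit Itga6 (-0.47, adjusted p = 0.0462) also fell. Klhdc7a (adjusted p up to 0.0673) lost its call without unstressed library 4 or without TAC library 2, 3 or 4. Aqp4, Lingo3, Chrna10, Scn4a, Egln3, Hspa5, Wnt5a, Angpt1, Dsg2 and Itga6 passed in at most 3 of the 8 fits that leave out 1 library, with adjusted p up to 0.144. Hspa5, Wnt5a, Angpt1, Dsg2 and Itga6 also lost theirs with the correction for gene length.

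Calcium handling, ion channels and adrenergic signaling had negative medians and few calls by edgeR. The calcium pump gene Atp2a2 (SERCA2) read 6275, 3861, 3554 and 5566 CPM unstressed and 3755, 3338, 2481 and 3304 CPM after TAC, a log2 fold change of -0.58 ± 0.19 (SE, adjusted p = 0.157). Unstressed library 1 was the highest of the 8 and unstressed library 3 lay below TAC library 1. Ryr2, the calcium release channel, gave -0.56 (adjusted p = 0.135) and Pln, the inhibitor of the pump, -0.33 (adjusted p = 0.21). Of 30 calcium handling genes 21 were negative with a median of -0.18 and none passed. The median moved to -0.08 with the correction for gene length and to -0.04 without unstressed library 1, and DESeq2 called 5 of these genes lower and 1 higher. Of 34 channel genes, Scn4a fell and Kcnj8, a subunit of ATP-sensitive potassium channels, rose (0.48, adjusted p = 0.0433), with a median of -0.30. Kcnd2 and Kcnip2, of the transient outward potassium current, gave -0.69 (adjusted p = 0.357) and -0.20 (adjusted p = 0.338). Kcnj8 passed in 1 of the 8 fits that leave out 1 library, with adjusted p up to 0.123. Kcnj8 also lost it with the correction for gene length. The median of the channel genes was -0.17 without unstressed library 1, and DESeq2 called 6 lower and 1 higher.

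Grk5, a kinase that uncouples adrenergic receptors, read 26.6, 32.1, 28.1 and 36.9 CPM unstressed and 20.5, 20.5, 18.7 and 17.9 CPM after TAC and fell by 0.67 ± 0.11 on the log2 scale (SE, adjusted p = 0.0301). It was the 1 of 33 adrenergic genes that passed, whereas DESeq2 called 8 lower and 1 higher. The median of these genes was -0.10, -0.04 with the correction for gene length and 0.01 without unstressed library 1. The receptor genes Adrb1, Adra1a and Adra1b gave -0.61 (adjusted p = 0.0871), -0.43 (adjusted p = 0.583) and -0.76 (adjusted p = 0.103). Nr3c2, the mineralocorticoid receptor, read 11.6, 10.2, 12.4 and 10.0 CPM and 6.91, 6.83, 6.8 and 8.21 CPM and fell by 0.62 (adjusted p = 0.0331), the 1 of 15 genes of the angiotensin and endothelin system that passed. The regulators Mef2a (-0.40, adjusted p = 0.144) and Mef2d (-0.24, adjusted p = 0.179), as well as Suz12 (-0.06, adjusted p = 0.731) and Mettl5 itself (-0.12, adjusted p = 0.554), did not pass. Grk5 and Nr3c2 passed in at most 2 of the 8 fits that leave out 1 library, with adjusted p up to 0.101. Mettl5 read 7.18, 7.78, 6.79 and 6.7 CPM unstressed and 6.91, 6.83, 5.48 and 6.85 CPM after TAC.

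Energy metabolism gave few calls by edgeR. None of 40 genes of fatty acid uptake and oxidation passed, 31 were negative and the median was -0.16, or -0.10 without unstressed library 4. DESeq2 called 4 of them lower and 0 higher. Cpt1b, the gate of mitochondrial fatty acid entry, gave -0.05 (adjusted p = 0.756), Acadm -0.19 (adjusted p = 0.513) and Hadha -0.32 (adjusted p = 0.151). Their regulator Ppara read 15.5, 3.3, 5.01 and 7.81 CPM unstressed and 2.83, 2.85, 2.23 and 3.54 CPM after TAC (-1.46, standard error 0.42, adjusted p = 0.114). The coactivator Ppargc1a read 126, 59.7, 51.8 and 79.4 CPM and 58.3, 48.8, 35.1 and 44.6 CPM (-0.76, standard error 0.26, adjusted p = 0.169). Unstressed library 1 was far above the other libraries for both, and unstressed library 2 lay below TAC library 4 for Ppara and unstressed library 3 below TAC library 1 for Ppargc1a, so the groups overlapped. Of 17 such regulators 15 were negative, and the 1 that passed was the uncoupling protein gene Ucp2, which rose (0.58, adjusted p = 0.0331), whereas DESeq2 called 5 lower and 2 higher. Nuclear genes of the respiratory chain had 68 of 79 positive values, a median of 0.15 and no call. Their median was 0.09 with the correction for gene length and 0.08 without unstressed library 1. Ndufs1, Cox4i1 and Atp5a1 gave -0.15 (adjusted p = 0.52), 0.15 (adjusted p = 0.503) and -0.16 (adjusted p = 0.453). Creatine kinase B, Ckb, rose by 0.48 (adjusted p = 0.0463), the peroxide-reducing Gpx1 by 0.64 (adjusted p = 0.0209), the translation repressor Eif4ebp1 by 0.59 (adjusted p = 0.0169) and Sult1a1, a sulfotransferase, by 0.74 (adjusted p = 0.0425). Gpx1 (adjusted p up to 0.0745) lost its call without unstressed library 4 or without TAC library 2, 3 or 4. Eif4ebp1 (adjusted p up to 0.0639) lost its call without unstressed library 4 or without TAC library 3. Ucp2, Ckb and Sult1a1 passed in at most 2 of the 8 fits that leave out 1 library, with adjusted p up to 0.127. Sult1a1 also lost it with the correction for gene length.

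The direction of change followed gene length. Genes that rose had a median exonic length of 2740 bases and genes that fell 5996 bases, against 3752 over 16257 tested genes with a known length. Across genes the log2 fold change and exonic length had a Spearman correlation of -0.31, given as a description since genes are not independent. With genes ordered by length into 10 equal groups, 9 rose and 2 fell among the shortest genes, and 4 rose and 17 fell among the longest. The median log2 fold change of all genes ran from 0.151 in the shortest group to -0.142 in the longest. Small list medians within that range cannot be told apart from the length trend by their value alone. Relative to the mean of the 8 libraries, the correlation with length was 0.355, -0.147, 0.093 and 0.162 in the unstressed libraries and -0.109, -0.143, -0.246 and -0.229 in the TAC libraries. Long genes were thus highest in unstressed library 1 and lowest in TAC library 3, and unstressed library 2 lay within the range of the TAC libraries. With an offset for length in each library the correlation over genes became -0.002, and 34 genes were dysregulated higher and 23 lower. Of the 63 dysregulated genes 54 still passed, among them Acta1 and Nppa. On average the length trend differed between the groups, and by the design it cannot be told apart from TAC or from the table.

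**Figure D4:**
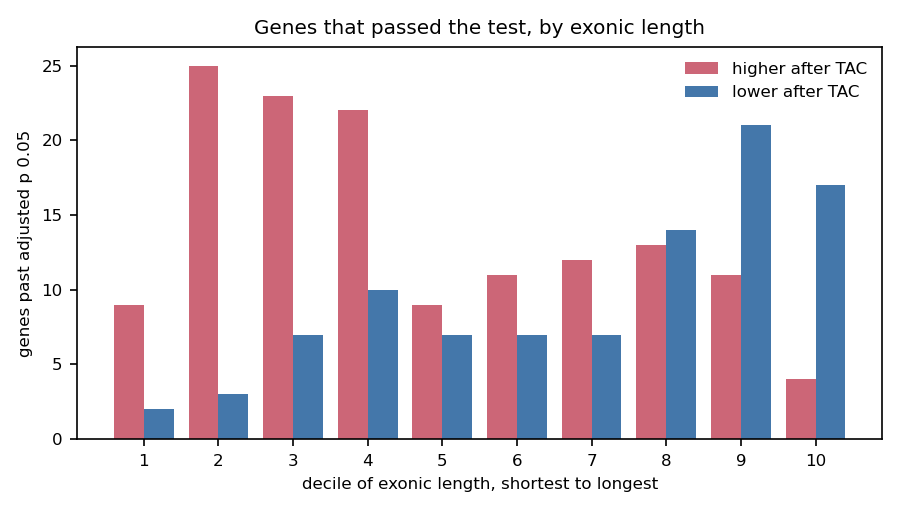
Number of genes that rose (red) and fell (blue) after TAC at an adjusted p under 0.05 in each decile of the tested genes ordered by exonic length, shortest to longest. Genes that rose are most numerous in deciles 2 to 4 and genes that fell in deciles 8 to 10.

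Several of the strongest calls were genes that overlap a neighbour or share sequence with one. Gm47398 and Gm6983 overlap on opposite strands (chr10:44851393-44866786 and chr10:44852614-44853241). Gm47398 had 38, 34, 33 and 37 counts in the unstressed hearts and 0 in all TAC hearts, so the TAC level was at least 11.2-fold lower, taken at 3 counts per library. Gm6983 rose by 1.71 (adjusted p = 0.00926), from 12, 15, 17 and 16 counts to 39, 50, 47 and 51. Among the METTL5-cKO libraries Gm47398 was at 0 in 1 unstressed and 2 TAC hearts, and Gm6983 was at 49, 50 and 55 counts in those 3 and at 15 to 22 in the others. Gm20683 rose by 2.76 (adjusted p = 0.0101) and overlaps Rhbdl1 on the same strand. In METTL5-cKO hearts Gm20683 had 113, 0, 41 and 122 counts unstressed and 13, 90, 15 and 36 after TAC. Rhbdl1 had 17, 57, 61 and 14 counts in the same unstressed hearts and 57, 36, 92 and 71 after TAC. Rhbdl1 fell by 0.78 (adjusted p = 0.049) and was chosen, like Prob1, after its values were seen. Prob1 read 52.6, 7.88, 37 and 52.7 CPM unstressed and 8.92, 6.97, 4.47 and 8.63 CPM after TAC (-2.37, adjusted p = 0.0492). Unstressed library 2 was thus at the TAC level. In METTL5-cKO hearts Prob1 had 1048, 978, 1056 and 752 counts unstressed and 1212, 1171, 1238 and 158 after TAC. Dnaaf3 (10.0, 11, 9.75 and 8.56 CPM against 3.69, 4.87, 5.43 and 5.27 CPM, -1.03, adjusted p = 0.0117) overlaps the abundant troponin gene Tnni3 on the same strand. Gm17228 rose by 1.83 (adjusted p = 0.00926), and Pcdhgb5 and Gm17552 fell by 1.95 (adjusted p = 0.0199) and 1.34 (adjusted p = 0.0331). Pcdhgb5 shares its last exons with the other γ-protocadherins. Pcdhgb5 (adjusted p up to 0.0748) lost its call without TAC library 3 or 4. Rhbdl1, Prob1 and Gm17552 passed in at most 3 of the 8 fits that leave out 1 library, with adjusted p up to 0.145. Prob1 also lost it with the correction for gene length. Gm41505 had 0 counts in all 8 libraries of the 3-month table, METTL5-cKO included, and 12 to 52 counts in all 8 of the TAC table. It was the 1 gene of 55487 that followed the table in this way with at least 5 counts, and no gene did so in reverse.

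How firm the calls are differed between genes. Of the 234 genes that passed, 30 kept an adjusted p under 0.05 whichever library was left out, 16 of them dysregulated, and none of the 234 changed sign. They included Acta1, Nppa, Aspn, Adh1, Aldh1a1, Fgf6, Lair1, Timp4, Mmp2 and Fbln2 among those that rose and Cyb5r2, Slc7a1, Prox1 and Dnaaf3 among those that fell. In all, with TAC library 3 left out, 14 genes were dysregulated higher and 4 lower, and without unstressed library 1 48 and 27. In a fit of all 16 libraries from both sets of hearts, 19 genes were higher and 8 lower, with Acta1, Nppa and Aspn among those that passed and Timp4, Mmp2, Fbln2, Prox1, Postn, Mfap4, Bgn and Ankrd1 among those that lost their calls.

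Hearts of METTL5-cKO mice give the same contrast in the same 2 tables. In a joint fit of the 16 libraries Nppa rose by 1.72 in controls and 4.13 in METTL5-cKO hearts on the log2 scale, and the difference of 2.41 (standard error 0.39) had an adjusted p of 0.0935. The control values for Acta1, Postn and Mfap4 were 3.23, 1.38 and 1.38, against 4.14, 4.58 and 3.81 in METTL5-cKO hearts, with adjusted p of 0.246, 0.12 and 0.12 for the difference. Ccn2 gave 1.05 and 2.91 (adjusted p = 0.131) and Col1a1 0.45 and 2.1 (adjusted p = 0.183). Adh1 gave 1.66 and 0.29 (adjusted p = 0.212), Grk5 -0.67 and 0.35 (adjusted p = 0.133) and Aqp4 -1.22 and -4.30 (adjusted p = 0.0935). Of 17070 genes tested, 1 (0.00586%) passed, Dipk2a, at -0.03 in controls and 0.82 in METTL5-cKO hearts. At an unadjusted p under 0.05 there were 2011 genes, and DESeq2 called 235, with an adjusted p of 6.42e-07 for Nppa, 4.95e-08 for Aqp4, 0.00121 for Postn, 0.00012 for Mfap4, 0.00549 for Ccn2, 0.0331 for Col1a1 and 0.102 for Acta1. Without METTL5-cKO TAC library 4 edgeR called 679 genes, and the differences became 2.63 (adjusted p = 0.000211) for Nppa, 3.53 (adjusted p = 9.76e-05) for Postn, 2.69 (adjusted p = 0.000397) for Mfap4, -3.66 (adjusted p = 0.00115) for Aqp4, 2.03 (adjusted p = 0.0118) for Ccn2 and 1.89 (adjusted p = 0.0147) for Col1a1. Nppa read 5814, 5438, 6243 and 2215 CPM in the 4 METTL5-cKO TAC libraries, lowest in library 4.

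**Figure D5:**
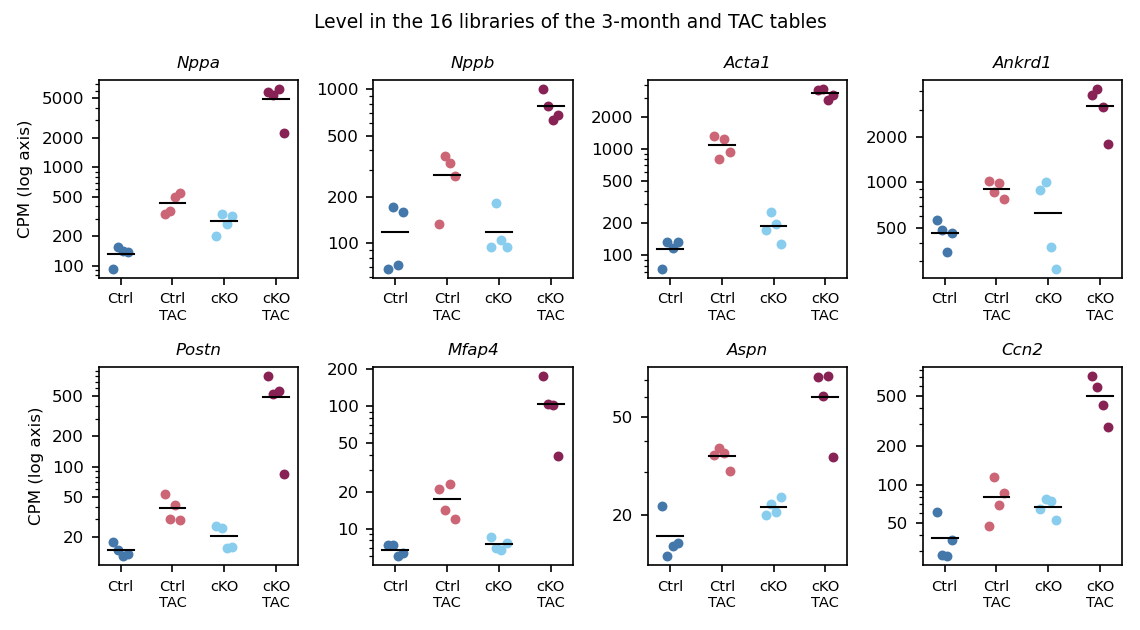
CPM (log axis, scaled over the 16 libraries) of 8 genes in control and METTL5-cKO hearts, unstressed and after TAC, with 1 point per library and a black line at the group mean. Control TAC libraries lie above control libraries for Nppa, Acta1, Ankrd1, Postn, Mfap4 and Aspn. METTL5-cKO TAC library 4 is the lowest of its group for Nppa, Ankrd1, Postn, Mfap4, Aspn and Ccn2, and library 3 is for Acta1 and Nppb.

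The unstressed controls also differ from 1-month-old controls, in a comparison that shares them with the TAC comparison and crosses tables, ages and sexes. At 1 month 3 of the 4 libraries read as female, with Xist at 146 to 194 CPM. Here 1095 of 16364 genes (6.69%) were dysregulated, 516 higher and 579 lower at 3 months, a balance that turned to 669 higher and 375 lower with library size alone. Acta1 and Nppa were at 1.18 (adjusted p = 0.179) and -1.26 (adjusted p = 0.113) on the log2 scale, 3 months over 1 month, and neither passed. Aspn was at 0.12 (adjusted p = 0.757), Postn at -0.60 (adjusted p = 0.304) and Col1a1 at -1.23 (adjusted p = 0.0249).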

How the data were processed

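RNA was isolated from mouse hearts and sequenced. The authors aligned reads to GRCm38 with HISAT2 (2.0.4), made gene counts with StringTie (2.1.4) and tested genes with DESeq2 (1.4.5 in the submitters' processing notes). The deposited values are estimated counts per gene, whole numbers not scaled between libraries, and the annotation and strand setting are not given in the sources used here. The design had assumed plain counts, and the same test was kept. Columns name a group but no replicate number of the labels, so libraries were numbered in column order, and 0 per-sample columns were left without a group. Their names carry separate animal numbers, but no source says how the animals were handled, so p-values measure the spread between these samples.

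The tables of the 3-month and TAC hearts were joined on the gene identifier. The 8 control libraries were tested with edgeR (4.0.16, R 4.3.3), TMM scaling, a filter of 10 counts (filterByExpr, minimum total 15) and its quasi-likelihood test, p-values adjusted after Benjamini-Hochberg. The fold changes use the default prior count of edgeR. Permutation tests of single genes used log2 CPM with a prior count of 2. Genes with 0 counts in a group were set against 3 counts per library. CPM and summed marker levels were computed from the deposited counts and TMM library sizes, and the CPM of sex-linked genes from the raw totals. The genotype comparison used all 16 libraries with an interaction term, and control hearts at 3 months and 1 month were compared as above. Alternatives were DESeq2 (1.42.0), other scalings, other filters, and each library left out. An offset for gene length was added after the data were seen. On simulated counts for 16077 genes of this comparison, 86.3% of 95 genes changed by 1 on the log2 scale and 100% of 103 changed by 2 were recovered, with 11 false calls. The simulation gave all genes the same dispersion, with no outlying library and no length trend. These rates therefore do not measure recovery or false calls in the real libraries. With 19899033 to 21739203 counts a library, the median standard error was 0.143 on the log2 scale.

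The gene lists and the genes named were chosen with earlier results of these data known. Named were the study's hypertrophy, fibrosis and regulator genes, the 10 higher and 10 lower dysregulated genes of smallest adjusted p whose groups did not overlap, the first 3 genes and up to 4 passing genes in each direction of each list, and the leading genes of the interaction. Some genes that met this rule are not reported here. Actc1, Npr1, Mfap5, Tgfbi, Igfbp7, Adamtsl2, Acta2, Aldh1a1, Gsta3, Egln3, Prob1 and Rhbdl1 were added after their values were seen. The lists overlap, so a gene can count in several. Promoters are RefSeq windows of GRCm38.p6.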

Additional observations from a re-analysis of the deposited data

Results flagged for a closer look

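A library was picked out where it stood apart from the other 3 of its group by Dixon's test. This held in 21 of 241 tests over the named genes (8.71%), where chance gives about 1 in 20 for independent tests. The tests share libraries, and some genes, such as Egln3, were chosen after their values were seen, so the shares cannot be compared. In unstressed library 1, Lum read 32 CPM against 20.7 to 21.4 in the other unstressed libraries, Mmp2 25.9 against 21.1 to 21.8 and Aldh1a1 13.8 against 8.63 to 9.21. For these 3 genes, which were higher after TAC on average, that library was the unstressed one nearest to the TAC hearts. In the same library Kcnd2 read 15.1 CPM against 4.74 to 6.17, Ackr4 3.57 against 1.27 to 1.64 and Suz12 14.4 against 12.4 to 12.6.

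In unstressed library 2, Pcolce2 read 7.36 CPM against 8.79 to 8.85 and Cyb5r2 2.69 against 3.55 to 3.7. In unstressed library 3, Egln3 read 31.3 CPM against 56.4 to 57.6, C1qc 22.1 against 25.9 to 26.4 and Adgre1 2.73 against 3.77 to 3.91.

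In TAC library 1, Gm6983 read 1.87 CPM against 2.34 to 2.38 in the other TAC libraries, Egln3 31.7 against 22.1 to 23.2 and Prox1 23.3 against 17.2 to 17.5. Over the 4 TAC libraries Hadha read 715, 714, 599.9 and 710.2 CPM and Atp5a1 2072, 2052, 1586 and 2079 CPM, and library 3 stood apart as the lowest, at about 600 and 1590 CPM. TAC library 3 also stood apart for Angpt1 (6.55 against 9.6 to 10), Mettl5 (5.48 against 6.83 to 6.91) and Mef2d (106 against 95.4 to 96.9). In TAC library 4, Nr3c2 read 8.21 CPM against 6.8 to 6.91 and Ackr4 5.13 against 6.14 to 6.29. The cause of these single values was not tested.

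Dipk2a was picked out because its response to TAC differed between genotypes (difference 0.85 on the log2 scale, adjusted p = 0.0343 by edgeR's quasi-likelihood interaction test). It was at -0.03 in controls and 0.82 in METTL5-cKO hearts. With 1 of the 16 libraries left out its adjusted p ran from 0.000915 to 0.143.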

How the results depend on the processing

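No paired analysis was possible because the columns carry no replicate number of the labels, and the animals of the 2 tables are not matched.

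The counts of dysregulated genes, 36 higher and 27 lower, became 14 and 4 with no filter on low counts, 19 and 8 in the fit of 16 libraries, 98 and 105 at an unadjusted p under 0.05 and 139 and 95 with no minimum fold change. DESeq2 gave 61 lower. Leaving out 1 library moved them between 14 and 48 higher and between 4 and 27 lower, lowest for both without TAC replicate 3. Genes past the adjusted p alone, 139 higher and 95 lower, were 394 and 377 with DESeq2, 35 and 14 with no filter, 58 and 30 with 16 libraries, 28 to 185 higher and 12 to 99 lower with 1 library left out. With no filter 29946 genes were tested instead of 16269. The cause of these shifts was not tested.

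Myh7 turned from -0.02 to 0.071 with the length offset, to 0.046 without unstressed replicate 3 and to 0.063 without TAC replicate 1, within a range of -0.092 to 0.063 over the libraries left out. Without unstressed replicate 1, Npr1 turned from 0.12 to -0.01 (range to 0.287) and Adra1a from -0.43 to 0.193 (range from -0.672). Of 1819 values of named genes under an alternative, 1360 kept their direction and side of the threshold, 435 lost the call, 19 gained it and 5 changed sign. Of 675 list medians 28 moved by more than the spread between replicates. Under library size alone the median of all genes shifted to -0.06, and the medians of the integrin, Wnt and integrated stress response lists fell from 0.03, 0.04 and 0.03 to -0.02, -0.01 and -0.01.

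The single gene past the interaction test became 0 with library size alone and with no filter, 235 with DESeq2 and 0 to 679 with 1 library left out, 679 without METTL5-cKO TAC replicate 4. Genes lower at 3 months than at 1 month fell from 579 to 375 with library size alone, and those higher went from 516 to 669. At this depth the median standard error over all tested genes was 0.143 on the log2 scale.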

Other observations

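Further gene groups were described by the same counts, beside the median of all genes of -0.01. Of 33 cytoskeleton genes, vimentin, Vim, an intermediate filament of fibroblasts and endothelium, rose by 0.76 on the log2 scale (adjusted p = 0.021), from 127 to 157 CPM unstressed to a range of 207 to 293 CPM after TAC. Anxa2, a membrane-binding annexin, rose by 0.43 (adjusted p = 0.0413), and 25 of these genes were positive. Of 13 glucocorticoid-responsive genes 11 were positive with a median of 0.50, and Sult1a1 alone passed. None of 20 clock genes passed by edgeR, DESeq2 called 2 higher and 2 lower, and their median was -0.22, or -0.10 without unstressed library 1. Without TAC library 1, 1 of them rose and 3 fell by edgeR. The clock repressor Nr1d1, a gene with a strong daily rhythm, read 95.8, 84.5, 58.1 and 95.7 CPM unstressed and 50.8, 10.4, 19 and 12.2 CPM after TAC (-1.85, adjusted p = 0.072). The time of day of collection is not given in the sources used here. Of 28 immediate early genes none passed by edgeR and 1 by DESeq2 (median 0.13).

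Of 24 genes of the integrated stress response, Eif4ebp1 rose and Slc7a1 fell. Of 36 endothelial genes, Prox1 and Angpt1 fell and none rose (median 0.07), whereas DESeq2 called 3 higher and 3 lower. Of 27 antioxidant and oxidant enzymes Gpx1 and Nox4 rose. By edgeR no gene passed among 31 cardiac transcriptional regulators (median -0.12), 18 genes of the TCA cycle (-0.08), 19 of branched-chain amino acid breakdown (-0.16), 6 of ketone metabolism (-0.08), 15 mitochondrially encoded genes (0.05, turning to -0.04 with the length offset), 10 muscle ubiquitin ligases (-0.05), 19 ribosome biogenesis genes (-0.05) or 12 p53 targets (0.00). DESeq2 called 1 of these regulators higher and 1 lower, and none in the other lists of that sentence. With the length offset the median of these regulators was -0.05.

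The first principal component of the 8 libraries, over the 500 most variable genes, held 22.2% of the variance and placed all TAC libraries on one side of the unstressed libraries. Unstressed library 2 was the nearest to the TAC libraries on it and unstressed library 1 the farthest.

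Of the 234 genes that passed in controls, 99 had an interaction with genotype at an unadjusted p under 0.05, as did 32 of the 63 dysregulated genes. Over all genes 2011 of 17070 did. The 234 were chosen for a difference between control libraries that also enter the interaction. That choice alone can raise their share, so no dependence on genotype is read from it. None of the 234 passed after adjustment by edgeR with all 16 libraries. Without METTL5-cKO TAC library 4, 64 of the 234 and 16 of the 63 passed, among 679 genes in all. Leading the interaction beside Dipk2a, Nppa and Aqp4 were Fbp2, a muscle fructose bisphosphatase, at -0.35 in controls and -2.07 in METTL5-cKO hearts, and Meox1 at 0.23 and 2.35, although neither of these 2 passed in controls themselves.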
